A study of Homo sapiens with 12 samples.

Results

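The genes described here are 40 genes of squamous differentiation and the cornified envelope, chosen by name from the 29744 gene entries of the count table, which holds all 40. RNA-seq measured them in MB157, an established triple-negative breast cancer (TNBC) line, and in MB157R, the resistant derivative that grew out of MB157 during 25 weeks in 1 µM of the γ-secretase inhibitor (GSI) LY3039478. All cells carried a lentiviral vector that doxycycline switches on, and doxycycline was added to all of them for 72 h. The labels give its dose as 1 µg/ml, the upper end of the range in the methods. The 4 groups of 3 libraries were MB157 with an empty vector (MB157 iEV), MB157 with inducible SOX2 (MB157 iSOX2), MB157R with the empty vector (MB157R iEV) and MB157R with the inducible intracellular domain of NOTCH1 (MB157R iN1-ICD). The labels call MB157 wild type and MB157R GSI-resistant.

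These groups have limits as a model. The methods describe the MB157R construct both as N1-ICD and as DeltaE-NOTCH1, a form without the extracellular domain that γ-secretase still has to cut, and they do not say whether GSI was in the medium when RNA was taken. MB157 itself carries a NOTCH1 gene that makes a truncated, active receptor. All 6 MB157R libraries came from 1 resistant derivative, so what the drug selected and what that derivative happened to carry cannot be told apart.

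In skin and other stratified epithelia, keratinocytes that leave the basal layer build a cornified envelope under the plasma membrane. Transglutaminases crosslink involucrin, small proline-rich proteins and other precursors onto a scaffold of the plakins envoplakin and periplakin, while S100 proteins, serpins and small protease inhibitors accompany the process and act in barrier defence. Grainyhead-like factors drive barrier genes, and NOTCH1 signaling, through its DNA-binding partner RBPJ, is a known promoter of the step from basal to suprabasal cells. Normal breast epithelium makes little of this programme, whereas metaplastic and some basal-like tumors show squamous features.

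Depth lay between 32773820 and 49055208 estimated counts per library, with a median of 42836269. Levels below are CPM, counts scaled to a common library size with TMM factors over all 12 libraries, given for replicates 1, 2 and 3 in that order, and means are ± SD with n = 3. The induced genes matched the labels: SOX2 had 6.62, 7.69 and 6.99 CPM in MB157 iEV, 291, 335 and 298 CPM with iSOX2, 62.2, 65.4 and 53.4 CPM in MB157R iEV and 19.3, 19.9 and 17.2 CPM with iN1-ICD. NOTCH1 had 111, 99.5 and 106 CPM in MB157 iEV, 36.3, 40.7 and 35.7 CPM with iSOX2, 102, 85.4 and 90.1 CPM in MB157R iEV and 2617, 1760.1 and 2588 CPM with iN1-ICD, and in both cases counts from the vector and from the cells' own gene are not separated. Of 7 markers of breast epithelium, 5 (EPCAM, CDH1, KRT8, KRT18 and KRT19) were at 1 CPM or more in every group. ELF5, a factor of luminal progenitors, had means of 106 CPM in MB157 iEV and 144 CPM with iSOX2 and at most 2 counts in either MB157R group. GATA3, a luminal factor, had 5 counts in each MB157 group and means of 33.6 CPM in MB157R iEV and 41.1 CPM with iN1-ICD. The 7 markers summed to between 2056 and 2081 CPM in MB157 iEV, 1784 and 1814 CPM with iSOX2, 3666 and 3794 CPM in MB157R iEV and 5261 and 6034 CPM with iN1-ICD. Of 10 squamous markers, 5 reached 1 CPM in each MB157 group and 8 in each MB157R group. S100A8, S100A9 and LCN2 are also made by granulocytes, whose defining genes MPO, ELANE and FCGR3B had 0 counts in all 12 libraries. The 8 granulocyte and myeloid markers summed to between 35.7 and 39.5 CPM in MB157 iEV, 6.94 and 8.63 CPM with iSOX2, 0.367 and 0.436 CPM in MB157R iEV and 2.77 and 3.51 CPM in MB157R iN1-ICD, with CD14 the only one at 1 CPM or more in MB157.

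The promoters of 5 members that the results turn on are shown because they hold the letters bound by RBPJ or by AP-1, factors known to act at epidermal genes, at different places. Each is the 250 bases before the RefSeq start site (GRCh38.p14), read 5′ to 3′ on the gene's own strand, with capitals at matches to TGGGAA (RBPJ) or TGANTCA (AP-1) on either strand. IVL lies at chr1:152908296-152908545, SPRR1B at chr1:153030953-153031202 and S100A9 at chr1:153357604-153357853, all on the plus strand. SPRR2A lies at chr1:153057513-153057762 on the minus strand and SERPINB7 at chr18:63752807-63753056 on the plus strand.
IVL: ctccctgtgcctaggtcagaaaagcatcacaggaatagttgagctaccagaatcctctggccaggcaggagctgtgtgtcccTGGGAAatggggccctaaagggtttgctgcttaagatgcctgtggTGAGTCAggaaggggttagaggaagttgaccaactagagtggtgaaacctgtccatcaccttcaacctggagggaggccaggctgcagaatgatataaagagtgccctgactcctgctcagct
SPRR1B: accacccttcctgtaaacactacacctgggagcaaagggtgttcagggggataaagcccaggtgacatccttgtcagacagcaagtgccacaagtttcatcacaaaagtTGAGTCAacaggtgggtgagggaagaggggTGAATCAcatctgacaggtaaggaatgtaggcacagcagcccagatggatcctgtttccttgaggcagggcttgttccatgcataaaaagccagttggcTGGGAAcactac
SPRR2A: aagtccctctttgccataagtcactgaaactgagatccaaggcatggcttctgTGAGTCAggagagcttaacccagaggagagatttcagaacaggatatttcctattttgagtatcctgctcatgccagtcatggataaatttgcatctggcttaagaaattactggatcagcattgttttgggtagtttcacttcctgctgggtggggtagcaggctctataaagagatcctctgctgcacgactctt
S100A9: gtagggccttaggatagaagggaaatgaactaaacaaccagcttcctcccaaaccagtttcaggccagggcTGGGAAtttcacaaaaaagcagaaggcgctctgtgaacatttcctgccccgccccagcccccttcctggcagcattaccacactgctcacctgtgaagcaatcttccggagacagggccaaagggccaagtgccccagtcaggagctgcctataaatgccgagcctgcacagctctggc
SERPINB7: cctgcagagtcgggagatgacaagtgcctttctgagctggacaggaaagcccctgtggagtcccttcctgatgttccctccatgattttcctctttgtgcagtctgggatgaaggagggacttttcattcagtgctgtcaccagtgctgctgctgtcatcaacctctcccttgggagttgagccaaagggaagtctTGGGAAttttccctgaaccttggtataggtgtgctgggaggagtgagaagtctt

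Counted from the start site, IVL has the RBPJ letters 168 bases and the AP-1 letters 123 bases before it. SPRR1B has AP-1 letters 141 and 111 bases before and RBPJ letters 12 bases before, SPRR2A has 1 AP-1 match 197 bases before, S100A9 has 1 RBPJ match 179 bases before, and SERPINB7 has 1 RBPJ match 54 bases before. A promoter was found in the table for 31 of the 40 members. It held none for SPRR2D, SPRR2E, CSTA, TGM1, PPL, EVPL, PI3, SLPI and RHCG. Over the window from 250 bases before to 50 after the start, and on both strands, TGGGAA was found in 16 of the 31 members (51.6%) and 24.3% of all 27305 promoters. TGANTCA was found in 13 members (41.9%) and in 7.76% of all promoters, the grainyhead letters ACCNGTT in 7 members (22.6%) and 6.53%, and the SOX letters CTTTGT in 9 members (29%) and 16%. Of the 16 members in the table that were higher with iN1-ICD, 9 held TGGGAA and 5 held TGANTCA. In SPRR1B a grainyhead match begins on the last base of the upstream AP-1 match. These are letters in a window and say nothing of binding in these cells.

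**Figure D1:**
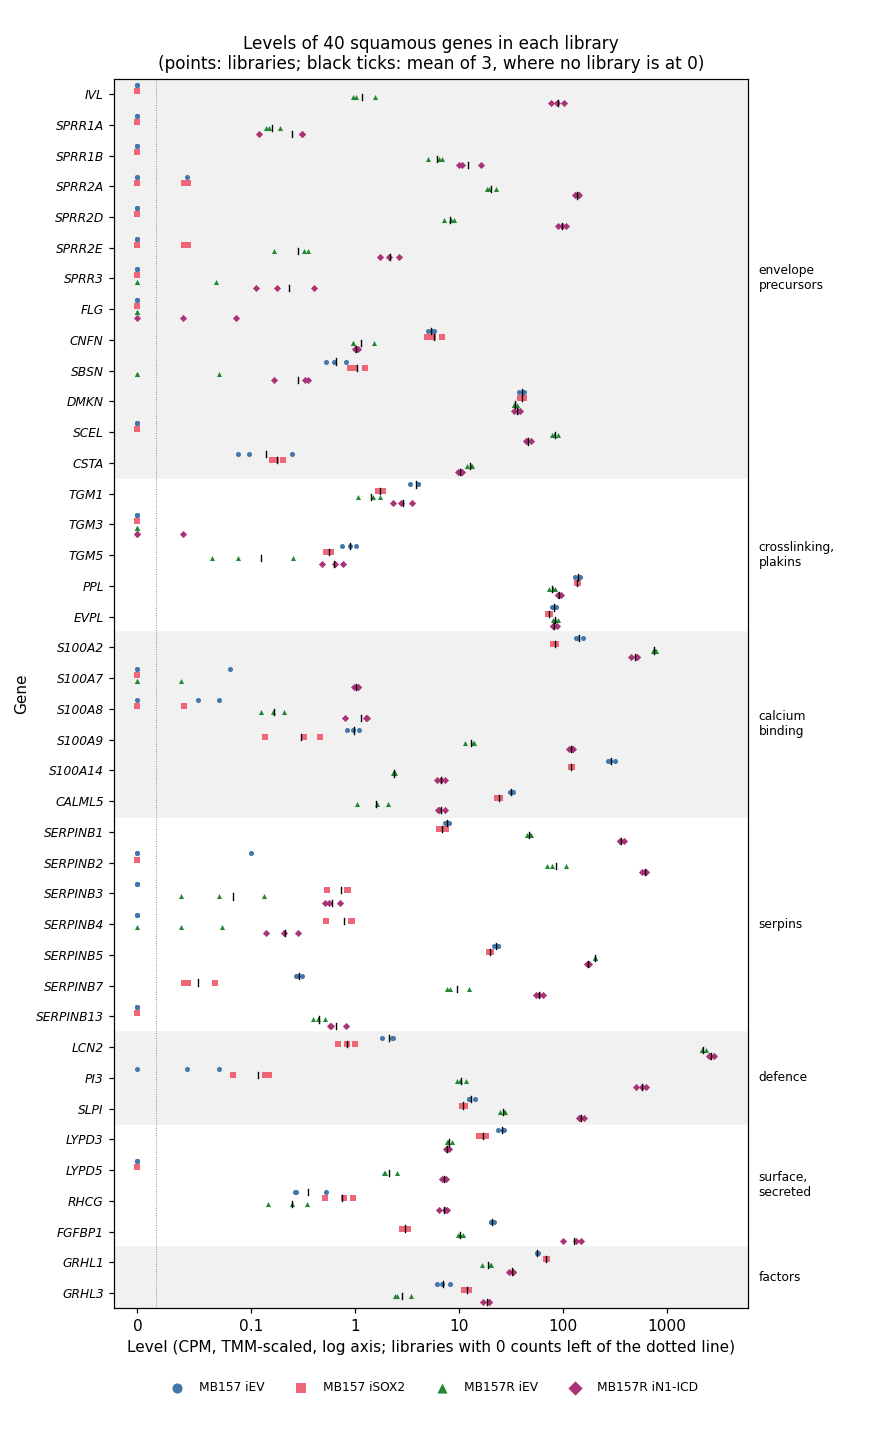
Level of each of the 40 genes (CPM scaled by TMM, log axis, with libraries at 0 counts set apart on the left) in the 12 libraries, coloured by group and ordered by role. Members with 0 counts in a whole group number 13 in MB157 iEV, 12 with iSOX2, 2 in MB157R iEV and 0 with iN1-ICD, and members at 100 CPM or more number 3, 2, 3 and 10.

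Across the 4 groups, part of the programme had 0 counts in MB157, while most of it had counts in MB157R, some of them very few. In MB157R iEV 3 members had only 1 to 3 counts in total. Members with a mean of at least 1 CPM numbered 16 in MB157 iEV, 16 with iSOX2, 27 in MB157R iEV and 31 with iN1-ICD, and 13, 12, 2 and 0 members had 0 counts in all 3 libraries of a group. The most abundant member changed as well. Per kilobase of the GENCODE canonical transcript, S100A14 led in MB157 iEV with a level of 273 CPM per kb, ahead of S100A2, and LCN2 led in MB157R iEV and MB157R iN1-ICD with levels of 2726 and 3230 CPM per kb. Summed over the members without LCN2, levels were between 864 and 918 CPM in MB157 iEV, 624 and 634 CPM with iSOX2, 1514 and 1530.1 CPM in MB157R iEV and 3134 and 3555 CPM in MB157R iN1-ICD. In bulk libraries a larger share of expressing cells and more RNA per cell cannot be told apart.

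Among the envelope precursors, involucrin (IVL), the classic marker of suprabasal keratinocytes, had 0 counts in all 6 MB157 libraries, 0.941, 1.0 and 1.54 CPM in MB157R iEV and 86.9, 76.9 and 101 CPM with iN1-ICD. SPRR2A had 0, 0.0237 and 0 CPM in MB157 iEV, 0.0245, 0.0224 and 0 CPM with iSOX2, 22.3, 18.7 and 19.2 CPM in MB157R iEV and 139, 129 and 141 CPM with iN1-ICD. SPRR2D had 0 counts in all 6 MB157 libraries, 8.9, 7.13 and 8.29 CPM in MB157R iEV and 98.3, 89.1 and 107 CPM with iN1-ICD. All 3 genes were lowest in MB157, intermediate in MB157R iEV and highest with iN1-ICD. SPRR1B had 0 counts in all 6 MB157 libraries, 6.77, 5.02 and 6.42 CPM in MB157R iEV and 9.99, 10.7 and 16.1 CPM with iN1-ICD. Sciellin (SCEL), an envelope precursor first found in stratified epithelia, had 0 counts in all 6 MB157 libraries, 78.8, 80.9 and 89 CPM in MB157R iEV and 43.4, 49.5 and 44.8 CPM with iN1-ICD. Cystatin A (CSTA), a cysteine protease inhibitor built into the envelope, had 0.246, 0.095 and 0.0736 CPM in MB157 iEV, 0.172, 0.157 and 0.203 CPM with iSOX2, 11.9, 13.1 and 13.2 CPM in MB157R iEV and 9.66, 10.6 and 10.3 CPM with iN1-ICD. SCEL and CSTA thus had their highest values in MB157R iEV and not with iN1-ICD. Dermokine (DMKN), a secreted product of suprabasal cells, varied little, with 37.3, 42.3 and 40.7 CPM in MB157 iEV, 39.2, 41.9 and 38.7 CPM with iSOX2, 33.3, 34 and 35.6 CPM in MB157R iEV and 36.8, 33.7 and 38.1 CPM with iN1-ICD. The other 6 precursors stayed under 10 CPM in every group: the means of cornifelin (CNFN) lay between 1.01 and 5.74 CPM, those of suprabasin (SBSN) between 0.0163 and 1.03 CPM, and SPRR2E, SPRR1A and SPRR3 reached at most 2.15, 0.244 and 0.228 CPM, all with iN1-ICD. Filaggrin (FLG), the marker of the granular layer of skin, had 0 counts outside MB157R iN1-ICD, where its mean was 0.0307 CPM against a floor of 0.0234 CPM, the value of 3 counts over the 3 libraries. FLG was thus at or near the detection limit in every group, while IVL and the SPRR2 genes were well above it with iN1-ICD.

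Of the 3 crosslinking enzymes among the members, none reached 10 CPM in any group. Transglutaminase 1 (TGM1), the membrane-bound enzyme of keratinocytes, had group means of 3.79, 1.71, 1.42 and 2.86 CPM in MB157 iEV, with iSOX2, in MB157R iEV and with iN1-ICD. TGM5 lay between 0.122 and 0.879 CPM, and TGM3 had 1 count in 1 MB157R iN1-ICD library and 0 elsewhere. The plakin scaffold was in contrast present throughout. Envoplakin (EVPL) had 85.4, 77.2 and 82.5 CPM in MB157 iEV, 74.6, 71.9 and 72.5 CPM with iSOX2, 88.4, 83 and 79.5 CPM in MB157R iEV and 87.4, 79.4 and 80.1 CPM with iN1-ICD. Periplakin (PPL) had 142, 130.2 and 147 CPM in MB157 iEV, 137, 137 and 137 CPM with iSOX2, 82.7, 72.4 and 80.5 CPM in MB157R iEV and 95, 90.0 and 89.4 CPM with iN1-ICD. EVPL libraries of MB157 iEV, MB157R iEV and MB157R iN1-ICD overlapped, and PPL was higher in every MB157 library than in every MB157R library.

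Of the calcium-binding members, S100A14 and CALML5 were higher in MB157, and S100A2 and S100A9 were higher in MB157R. The means of S100A7 and S100A8 reached at most 1.02 and 1.12 CPM, both with iN1-ICD. S100A14 had 268, 282 and 312 CPM in MB157 iEV, 119.9, 121 and 118 CPM with iSOX2, 2.43, 2.3 and 2.37 CPM in MB157R iEV and 6.16, 7.35 and 6.68 CPM with iN1-ICD. The calmodulin-like skin protein CALML5 had 30.5, 31.3 and 32.8 CPM in MB157 iEV, 23.1, 24.6 and 24.1 CPM with iSOX2, 2.06, 1.62 and 1.04 CPM in MB157R iEV and 6.18, 6.39 and 7.36 CPM with iN1-ICD. Both were lower in every MB157R library than in every MB157 library. S100A2, known from basal cells of squamous epithelium, had 137, 155 and 134 CPM in MB157 iEV, 80.3, 85.5 and 84.2 CPM with iSOX2, 756, 779 and 728 CPM in MB157R iEV and 516, 448 and 517 CPM with iN1-ICD. S100A9, a subunit of the antimicrobial protein calprotectin, had 0.955, 1.09 and 0.834 CPM in MB157 iEV, 0.319, 0.134 and 0.452 CPM with iSOX2, 13.5, 11.5 and 13.9 CPM in MB157R iEV and 121, 114 and 124 CPM with iN1-ICD. Its partner S100A8 was far lower, with group means between 0.00753 and 1.12 CPM. S100A7 (psoriasin) had at most 2 counts in any library outside MB157R iN1-ICD, where it had 0.964, 1.06 and 1.05 CPM.

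The serpins, protease inhibitors of the clade B family that stay mostly inside the cell, were low in MB157. SERPINB2, also called plasminogen activator inhibitor 2, had 0, 0 and 0.0981 CPM in MB157 iEV, 0 CPM with iSOX2, 77.4, 70.2 and 106 CPM in MB157R iEV and 615, 572 and 633 CPM with iN1-ICD. SERPINB1, an inhibitor of neutrophil proteases, had 7.3, 7.77 and 8.0 CPM in MB157 iEV, 6.79, 6.43 and 7.39 CPM with iSOX2, 48.1, 44.4 and 48.5 CPM in MB157R iEV and 353, 350.0 and 384 CPM with iN1-ICD. Maspin (SERPINB5), expressed by normal mammary myoepithelium, had 21.5, 23.5 and 23.4 CPM in MB157 iEV, 20.0, 19.4 and 20.4 CPM with iSOX2, 201, 201 and 202 CPM in MB157R iEV and 173, 171 and 177 CPM with iN1-ICD. SERPINB1 and SERPINB2 were highest with iN1-ICD, and SERPINB5 was highest in MB157R iEV. SERPINB7 had 0.277, 0.309 and 0.27 CPM in MB157 iEV, 0.0245, 0.0448 and 0.0226 CPM with iSOX2, 7.66, 8.2 and 12.5 CPM in MB157R iEV and 55, 63.2 and 57.9 CPM with iN1-ICD. The squamous cell carcinoma antigens SERPINB3 and SERPINB4 stayed under 1 CPM in every group, as did SERPINB13, which was seen only in MB157R.

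Among the defence proteins, lipocalin 2 (LCN2), which withholds bacterial iron carriers, had 2.28, 1.8 and 2.26 CPM in MB157 iEV, 0.833, 0.985 and 0.678 CPM with iSOX2, 2156, 2158 and 2392 CPM in MB157R iEV and 2510.0, 2837 and 2599 CPM with iN1-ICD. Elafin (PI3), an elastase inhibitor that transglutaminase couples to the envelope, had 0, 0.0237 and 0.0491 CPM in MB157 iEV, 0.147, 0.0672 and 0.136 CPM with iSOX2, 9.57, 10.1 and 11.6 CPM in MB157R iEV and 569, 506 and 629 CPM with iN1-ICD. Its neighbour SLPI, the secretory leukocyte protease inhibitor, had 12.4, 12.3 and 14.3 CPM in MB157 iEV, 11.4, 10.7 and 10.6 CPM with iSOX2, 27.6, 24.6 and 27 CPM in MB157R iEV and 141, 145 and 158 CPM with iN1-ICD. LCN2 already stood near its highest level in MB157R iEV, whereas most of the PI3 level was found only with iN1-ICD.

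Of the surface and secreted members, FGFBP1, a carrier that frees fibroblast growth factors from the matrix, had 20.1, 20.0 and 21.6 CPM in MB157 iEV, 3.23, 2.82 and 2.91 CPM with iSOX2, 10.8, 9.69 and 10.2 CPM in MB157R iEV and 132, 99.2 and 148 CPM with iN1-ICD. LYPD3, a membrane-anchored protein of suprabasal cells, had 26.5, 27 and 23.4 CPM in MB157 iEV, 16.7, 18.2 and 15.4 CPM with iSOX2, 7.73, 7.64 and 8.48 CPM in MB157R iEV and 7.69, 7.87 and 7.47 CPM with iN1-ICD. LYPD5 had 0 counts in MB157 and means of 2.11 CPM in MB157R iEV and 7.13 CPM with iN1-ICD. The ammonia transporter RHCG stayed under 1 CPM outside MB157R iN1-ICD, where its mean was 7.11 CPM. The transcription factor GRHL1 had 56.6, 55.5 and 57.6 CPM in MB157 iEV, 69.4, 69.2 and 68.4 CPM with iSOX2, 20.4, 19.8 and 16.7 CPM in MB157R iEV and 30.2, 33.1 and 32.8 CPM with iN1-ICD. GRHL3 had 6.07, 6.74 and 8.07 CPM in MB157 iEV, 11.2, 12.3 and 12.1 CPM with iSOX2, 3.44, 2.4 and 2.54 CPM in MB157R iEV and 19.2, 16.9 and 19.2 CPM with iN1-ICD. GRHL3 was highest with iN1-ICD and GRHL1 highest in MB157 iSOX2.

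The first comparison, of resistant with sensitive cells, took MB157R iEV against MB157 iEV. All 4 serpins and all 3 defence genes tested were higher in MB157R, as were 5 of the 7 envelope precursors tested, while S100A14, CALML5, CNFN and both grainyhead factors were lower. The other 6 precursors were not tested, nor were SERPINB3, SERPINB4 and SERPINB13. The 5 precursors that were higher all had under 1 CPM in MB157 iEV, as did SERPINB2, SERPINB7 and PI3. Each test below is edgeR's quasi-likelihood test over all genes that the study kept for the comparison, and calls were made where p after Benjamini-Hochberg adjustment was under 0.05. Of 24 members tested, 14 were higher, 9 lower and 1, EVPL, did not pass (log2 fold change 0.04, SE 0.05, adjusted p = 0.48). Of all 11435 genes tested, 45.0% were called higher and 45.3% lower, so a call by itself set few genes apart. The members' median log2 fold change was 2.51, beside -0.0043 for all genes tested. Setting the 3 members at 0 counts in MB157 to their lower bounds could not move this median, as the bounds lie above it. For 9 of the 24, SPRR1B, SPRR2A, SPRR2D, SCEL, CSTA, S100A9, SERPINB2, SERPINB7 and PI3, the MB157 iEV mean was under 1 CPM. Apart from S100A9, which the study also kept for the iSOX2 comparison, these could enter the test only through MB157R. Of the 15 with at least 1 CPM in MB157 iEV, 5 were higher and 9 lower. Markers of breast epithelium moved in the same comparison: KRT8, KRT18, KRT19 and GATA3 were higher (log2 fold changes 2.07, 2.06, 1.61 and 9.50) and EPCAM, CDH1 and ELF5 lower (-0.48, -0.91 and -12.51). Their part in the members' values was not tested.

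SCEL showed the largest rise, at least 3196-fold above the 3-count floor of MB157 (log2 fold change 14.74, SE 0.20, adjusted p = 6.4e-14). SPRR2D was at least 313-fold higher (log2 fold change 11.39, SE 0.42, adjusted p = 2.8e-10) and SPRR1B at least 235-fold higher (log2 fold change 10.97, SE 0.49, adjusted p = 1.7e-09). SERPINB2 was 2586-fold higher by the ratio of means (log2 fold change 11.14, SE 0.34, adjusted p = 2.3e-12), on 4 counts in 1 MB157 library. The fitted values of genes at or near 0 counts depend on the count that the fit adds and are not bounds. LCN2 rose 1057-fold and S100A2 5.31-fold. The other members called higher were SPRR2A, CSTA, S100A9, SERPINB1, SERPINB5, SERPINB7, PI3 and SLPI, from a log2 fold change of 1.02 for SLPI to 10.75 for SPRR2A.

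S100A14 showed the largest fall, from 287 ± 22.8 CPM to 2.37 ± 0.0655 CPM (log2 fold change -6.92, SE 0.08, adjusted p = 2.2e-16). CALML5 fell from 31.6 ± 1.18 CPM to 1.57 ± 0.514 CPM (log2 fold change -4.34, SE 0.14, adjusted p = 3.2e-12), CNFN from 5.39 ± 0.35 CPM to 1.14 ± 0.323 CPM (log2 fold change -2.24, SE 0.18, adjusted p = 6.5e-08) and LYPD3 from 25.6 ± 1.97 CPM to 7.95 ± 0.462 CPM (log2 fold change -1.68, SE 0.08, adjusted p = 1.7e-10). GRHL1, GRHL3, FGFBP1, PPL and DMKN were the other members called lower, with log2 fold changes of -1.58, -1.32, -1.01, -0.83 and -0.22. Both transcription factors of the list thus fell in the cells in which SCEL, SPRR and SERPINB genes rose. Tested without the study's filter, 22 of 38 members were higher, 12 lower and 4 did not pass, against 35.6% higher and 37.6% lower among 21060 genes. IVL, at least 45.2-fold higher, and LYPD5, at least 80.9-fold higher, were among those called there that had not been tested with the filter.

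The second comparison asked what induced SOX2 did in the sensitive cells, as MB157 iSOX2 against MB157 iEV. Most of the expressed members fell, 6 of the 10 called lower by less than 1 on the log2 scale. FGFBP1, S100A14 and LCN2 fell most among those above 1 CPM, and both grainyhead factors rose. Of 16 members tested, 2 were higher, 10 lower and 4 did not pass, against 32.5% of 10904 genes called higher and 33.9% lower. The members' median log2 fold change was -0.22, beside -0.0019 for all genes tested. With library totals alone as scaling, 60.6% of all calls were higher in place of 48.9%, and the members' counts were again 2 higher and 10 lower. KRT8, KRT18 and KRT19 also fell (log2 fold changes -0.21, -0.63 and -0.96) and ELF5 rose (0.45).

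FGFBP1 fell 6.88-fold, from 20.6 ± 0.872 CPM to 2.99 ± 0.217 CPM (log2 fold change -2.78, SE 0.08, adjusted p = 3.9e-14). LCN2 fell from 2.11 ± 0.268 CPM to 0.832 ± 0.154 CPM (log2 fold change -1.33, SE 0.22, adjusted p = 5.2e-05). S100A14 fell from 287 ± 22.8 CPM to 119.6 ± 1.44 CPM (log2 fold change -1.26, SE 0.04, adjusted p = 3.4e-13) and S100A2 from 142 ± 11.1 CPM to 83.3 ± 2.69 CPM (log2 fold change -0.77, SE 0.05, adjusted p = 4.7e-10). All 4 calcium-binding members tested were called lower, the other 2 being S100A9, at under 1 CPM in both groups, and CALML5, with log2 fold changes of -1.66 and -0.40. LYPD3, SLPI, SERPINB5 and EVPL were called lower with log2 fold changes of -0.61, -0.25, -0.19 and -0.16. The SLPI call was lost without replicate 3 of MB157 iEV (log2 fold change -0.18, adjusted p = 0.0744). GRHL3 rose from 6.96 ± 1.02 CPM to 11.9 ± 0.594 CPM (log2 fold change 0.77, SE 0.10, adjusted p = 3.6e-06) and GRHL1 from 56.5 ± 1.04 CPM to 69 ± 0.529 CPM (log2 fold change 0.29, SE 0.04, adjusted p = 2.3e-06). The 95% interval of the log2 fold change was -0.10 to 0.06 for PPL, -0.12 to 0.10 for DMKN, -0.17 to 0.36 for CNFN and -0.36 to 0.04 for SERPINB1, the 4 members that did not pass.

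Members that were silent in MB157 mostly stayed so under SOX2. IVL, SPRR1A, SPRR1B, SPRR2D, SPRR3, FLG, SCEL, TGM3, SERPINB13 and LYPD5 had 0 counts in all 6 MB157 libraries, which with iSOX2 allows a level of up to 0.0231 CPM. SERPINB3 and SERPINB4 went the other way, with 0 counts in MB157 iEV and 0.532, 0.824 and 0.842 CPM and 0.914, 0.519 and 0.92 CPM with iSOX2. Without the filter they were called, at least 28.4-fold and at least 30.0-fold higher, as was RHCG, and TGM1 and SERPINB7 were called lower. In that fit 5 of 30 members were higher, 12 lower and 13 did not pass, against 22.7% higher and 21.9% lower of 20985 genes.

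**Figure D2:**
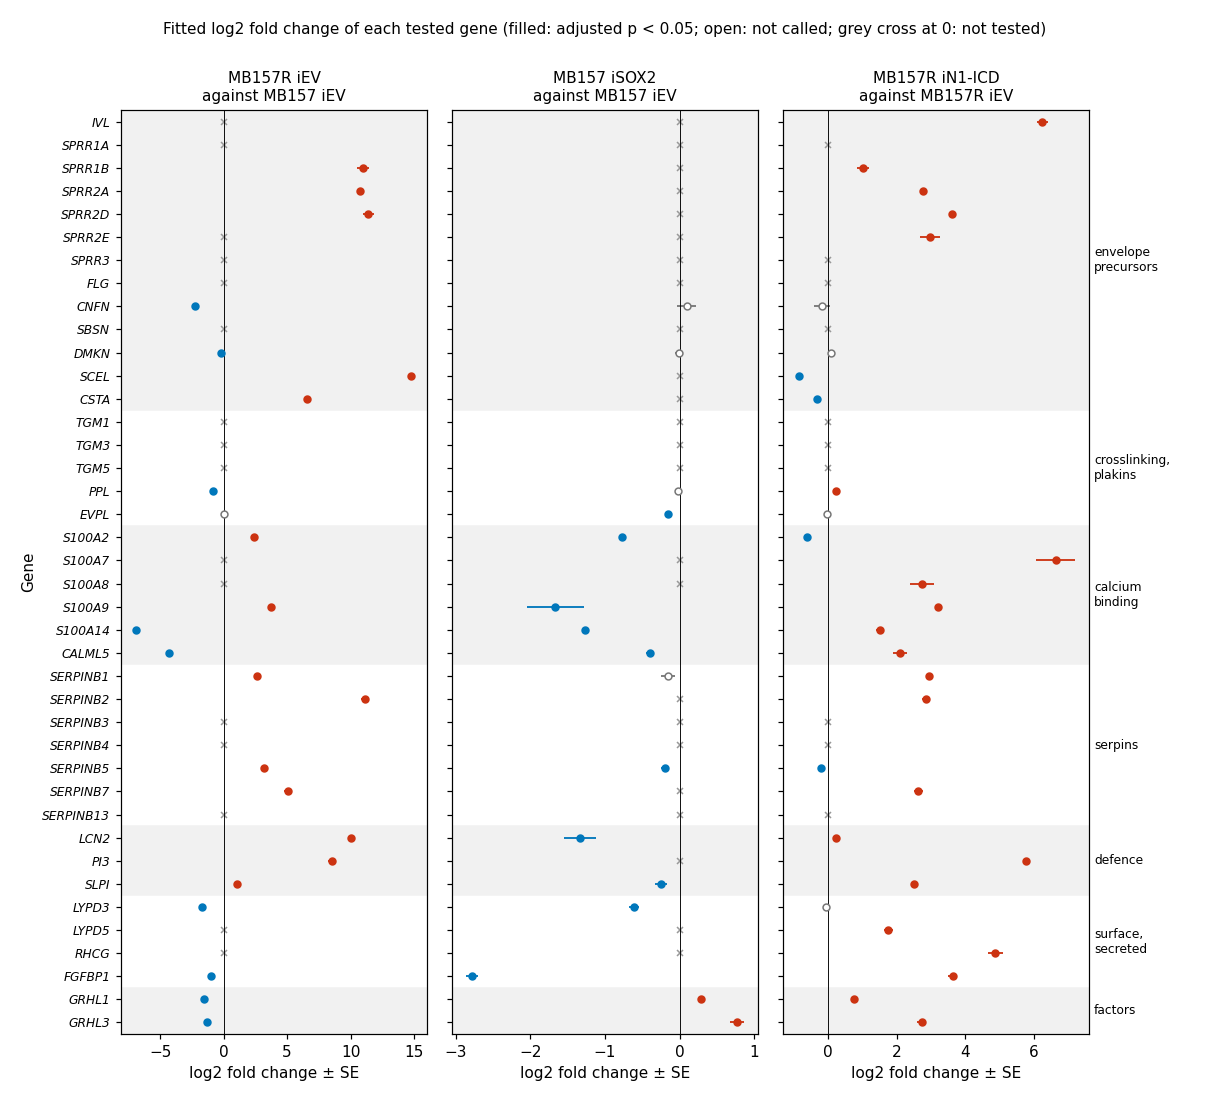
Fitted log2 fold change ± SE of each tested member (3 libraries against 3) in the 3 comparisons, with separate horizontal scales and grey crosses for members that were not tested. Rises (red) and falls (blue) number 14 and 9 for MB157R iEV against MB157 iEV, 2 and 10 for iSOX2, and 22 and 4 for iN1-ICD.

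The third comparison asked what induced N1-ICD did in resistant cells, as MB157R iN1-ICD against MB157R iEV. It gave the broadest rise: IVL, PI3, the 3 SPRR2 members, S100A9, SERPINB1, SERPINB2, FGFBP1 and GRHL3 rose, whereas SCEL, S100A2, CSTA and SERPINB5 fell. Of 30 members tested, 22 were higher, 4 lower and 4 did not pass, against 29.8% of 11210 genes called higher and 29.3% lower. The members' median log2 fold change was 2.29, beside -0.0014 for all genes tested. For 4 of the 30, SPRR2E, S100A7, S100A8 and RHCG, the MB157R iEV mean was under 1 CPM, so their entry to the test rested on iN1-ICD. The study's filter was on mean TPM, which takes transcript length into account. IVL, LYPD5 and GRHL3 were at 0.539, 0.848 and 0.985 CPM per kb in MB157R iEV, so their entry may also have rested on iN1-ICD. They are counted below among members with at least 1 CPM. Of the 26 tested members with at least 1 CPM in MB157R iEV, 18 were higher and 4 lower. Tested against a log2 fold change of 1 in place of 0, 18 members were higher and 0 lower, against 3.02% of all genes higher (339 of 11210). Of these 18 members, 14 had at least 1 CPM in MB157R iEV. LYPD5, FGFBP1 and PI3 belong to the study's NOTCH signature, which was chosen in part on these libraries, so their rise is not independent evidence of its direction. Of the 27 tested members outside that signature, 19 were higher and 4 lower, with a median log2 fold change of 2.09. Among the 23 of them with at least 1 CPM in MB157R iEV, 15 were higher and 4 lower. KRT8, KRT18, KRT19, CDH1 and GATA3 rose too (log2 fold changes 0.90, 1.14, 0.37, 0.34 and 0.30) and EPCAM fell (-0.19), and their part was not tested.

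IVL rose 76.2-fold, from 1.16 ± 0.328 CPM to 88.4 ± 12.4 CPM (log2 fold change 6.24, SE 0.15, adjusted p = 1.7e-10). PI3 rose 54.4-fold, from 10.4 ± 1.07 CPM to 568 ± 61.5 CPM (log2 fold change 5.77, SE 0.10, adjusted p = 1.5e-11), and RHCG 29-fold (log2 fold change 4.87, SE 0.22, adjusted p = 2e-08). S100A7 had the largest fitted value (log2 fold change 6.63, SE 0.56, adjusted p = 2.9e-06), but on 1 count in MB157R iEV, so that its ratio of 148 has a 95% counting interval from 23.9 to 5395. The SPRR2 genes rose together, SPRR2D 12.1-fold, SPRR2E 7.69-fold and SPRR2A 6.79-fold. SERPINB1, SERPINB2 and SERPINB7 rose 7.71-fold, 7.17-fold and 6.21-fold. Of the calcium-binding members, S100A9 rose 9.28-fold, S100A8 6.85-fold, CALML5 4.22-fold and S100A14 2.84-fold. For CALML5 and S100A14 the level reached with iN1-ICD, 6.64 ± 0.628 CPM and 6.73 ± 0.596 CPM, remained below every MB157 library.

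FGFBP1 rose 12.4-fold, GRHL3 6.59-fold, SLPI 5.61-fold, LYPD5 3.38-fold, SPRR1B 2.02-fold and GRHL1 1.69-fold. LCN2 and PPL rose by 1.18-fold and 1.17-fold only. SCEL fell from 82.9 ± 5.38 CPM to 45.9 ± 3.19 CPM (log2 fold change -0.85, SE 0.06, adjusted p = 7.9e-07) and S100A2 from 754 ± 25.3 CPM to 493 ± 39.4 CPM (log2 fold change -0.60, SE 0.06, adjusted p = 6.6e-06). CSTA (log2 fold change -0.31, SE 0.08, adjusted p = 0.0059) and SERPINB5 (log2 fold change -0.21, SE 0.03, adjusted p = 0.00036) fell less. All 4 had risen from MB157 to MB157R iEV, a comparison that shares the MB157R iEV libraries with this one. For the 4 members that did not pass, the 95% interval of the log2 fold change was -0.68 to 0.36 for CNFN, -0.24 to 0.15 for LYPD3, -0.13 to 0.10 for EVPL and -0.03 to 0.21 for DMKN. Without the filter 28 of 40 members were higher, 4 lower and 8 did not pass, against 22.2% higher and 20.5% lower of 20317 genes.

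The comparisons with induced SOX2 and induced N1-ICD share no library, so their directions can be set side by side. Of 16 members tested in both, 10 were called in both. CALML5, FGFBP1, LCN2, S100A14, S100A9 and SLPI were lower with iSOX2 and higher with iN1-ICD, and 0 members showed the reverse. GRHL1 and GRHL3 rose with both factors, and S100A2 and SERPINB5 fell with both. Among the 4006 genes called in both comparisons, 24.7% were lower with iSOX2 and higher with iN1-ICD, beside 6 of 10 members (60%). Of those 6, FGFBP1 belongs to the study's NOTCH signature, so its rise with iN1-ICD is not independent evidence of its direction. S100A9 was under 1 CPM in MB157 iEV and with iSOX2, and the SLPI call with iSOX2 was lost without replicate 3 of MB157 iEV. The SOX2 test was made in MB157 and the N1-ICD test in MB157R, so the factor and the cell line cannot be told apart.

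Members also share positions in the genome. On chromosome 1, 13 of them lie within 1.31 Mb (GRCh38, chr1:152302165-153616986), the epidermal differentiation complex, from FLG to S100A14. Of the 10 of these tested with iN1-ICD, 9 were higher and 1, S100A2, lower, beside 29.8% and 29.3% of all genes tested. SPRR2E, S100A7 and S100A8 were under 1 CPM in MB157R iEV, so their entry to this test rested on iN1-ICD. The entry of IVL may have rested on it too. The 3 tested with iSOX2, S100A2, S100A9 and S100A14, were all lower, beside 33.9% of all genes tested. In MB157R iEV against MB157 iEV, 5 of 6 were higher and 1, S100A14, lower, beside 45.0% and 45.3% of all genes tested. Of those 5, SPRR1B, SPRR2A, SPRR2D and S100A9 were under 1 CPM in MB157 iEV. Genes of the same complex that are not members did not all follow: with iN1-ICD, S100A6 (log2 fold change -1.26, SE 0.05, adjusted p = 3.2e-09) and S100A16 (log2 fold change -0.55, SE 0.05, adjusted p = 3.6e-06) fell, while SPRR2F rose (log2 fold change 2.35, SE 0.14, adjusted p = 2.1e-07). On chromosome 18, 6 serpins lie within 0.427 Mb (chr18:63476958-63903888). Of these, SERPINB2 and SERPINB7 rose and SERPINB5 fell with iN1-ICD. PI3 and SLPI lie within 0.0797 Mb on chromosome 20 and both rose with iN1-ICD.

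Near-identical members may share reads. Aligned transcripts of SPRR2A and SPRR2D were 94.1% identical, SPRR2A and SPRR2E 93.3%, SERPINB3 and SERPINB4 95.7%, and SPRR1A and SPRR1B 83.8%. SPRR2A, SPRR2D and SPRR2E had estimated counts that were not whole, at a tolerance of 0.01, in 6 of 12 libraries each, and SERPINB3 and SERPINB4 in 7. Salmon can divide a read between similar genes, so the split within each set is uncertain. Summed, the SPRR2 genes rose with iN1-ICD by a log2 fold change of 3.02 (SE 0.07, adjusted p = 1.52e-10) and the SPRR1 genes by 1.01 (SE 0.17, adjusted p = 0.0005). S100A7 transcripts were 96.3% identical to those of S100A7A over the aligned bases, and the sum of both rose by 6.0 (SE 0.54, adjusted p = 4.61e-06).

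The wider programme was read from lists of 45 other envelope and barrier genes, 20 other epithelial transcription factors and 10 squamous markers. Of the other envelope genes, 17 were tested in MB157R iEV against MB157 iEV, where 13 were higher and 4 lower, beside 45.0% and 45.3% of all genes tested. SPRR2F, CST6, TGM2 and ECM1, all called higher, were under 1 CPM in MB157 iEV, so their entry to the test rested on MB157R. Of the 13 tested with at least 1 CPM in MB157 iEV, 9 were higher and 4 lower. The rises were led by TGM2, the tissue transglutaminase, with 0.0103 and 582 CPM, and by CST6, a cystatin, both at or near 0 counts in MB157, and the largest falls were those of DSC2 and PRSS8 (log2 fold changes -1.62 and -1.48). With iSOX2, 13 were tested, 5 were higher and 5 lower, beside 32.5% and 33.9% of all genes, so the list was near the background. The largest rises were ANXA1 and CDKN1A, a phospholipid-binding protein and a cell cycle inhibitor (3.48 and 1.99), and the largest falls the desmosomal genes PKP1 and DSC2 (-0.88 and -0.56). With iN1-ICD, 18 were tested, 12 were higher and 6 lower, beside 29.8% and 29.3% of all genes, with PKP1 the largest rise (log2 fold change 2.81, SE 0.09, adjusted p = 1.7e-09) and CST6 the largest fall (-1.27). DSG3, among those 12, belongs to the study's NOTCH signature, so its rise is not independent evidence of its direction. The medians of the tested genes were 1.12, -0.04 and 0.37, against 2.51, -0.22 and 2.29 for the members.

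Of the squamous markers, the basal keratins KRT5 and KRT14 fell with iSOX2 (-2.05 and -1.40) and rose with iN1-ICD (1.58 and 6.58). With iN1-ICD, 6 of 8 tested were higher and 2 lower, beside 29.8% and 29.3% of all genes tested. KRT5, KRT6A and DSG3, 3 of those 6, belong to the study's NOTCH signature, so their rise with iN1-ICD is not independent evidence of its direction. Of the 5 markers tested outside it, IVL, KRT13 and KRT14 were higher and TP63 and KRT10 lower. The entry of IVL to this test may have rested on iN1-ICD. KRT6A, a keratin of activated keratinocytes, rose with iN1-ICD (5.04), and KRT10, the keratin of suprabasal skin, fell (-0.72). TP63, the master factor of stratified epithelium, and KRT13 showed the largest rises in MB157R iEV against MB157 iEV (12.07 and 8.95). They had 6 and 2 counts in MB157 iEV, so their entry to the test rested on MB157R and these fitted values depend on the added count. In that comparison 5 of 7 were higher, beside 45.0% of all genes tested. KRT14 and KRT5 fell (-3.01 and -0.78), beside 45.3% called lower.

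Of the other transcription factors, 8 of 17 tested were higher and 8 lower in MB157R iEV against MB157 iEV, 6 of 15 higher and 7 lower with iSOX2, and 8 of 17 higher and 6 lower with iN1-ICD. Beside the shares of all genes given above, these counts were near the background for MB157R iEV against MB157 iEV (45.0% higher and 45.3% lower), and they say nothing particular of the list. TP63 had 0.0924, 0.0237 and 0.0491 CPM in MB157 iEV, 0.907, 0.94 and 0.768 CPM with iSOX2, 229.6, 223 and 254 CPM in MB157R iEV and 173, 184 and 169 CPM with iN1-ICD. KLF4, a barrier factor, had 1.45, 2.3 and 2.06 CPM in MB157 iEV, 2.97, 3.07 and 3.07 CPM with iSOX2, 38.9, 39.2 and 36.5 CPM in MB157R iEV and 31.5, 31.7 and 33.9 CPM with iN1-ICD. ZNF750, a factor of late epidermal differentiation, had 23.3, 24.1 and 25.2 CPM in MB157 iEV, 8.16, 9.16 and 8.59 CPM with iSOX2, 0.138, 0.196 and 0.145 CPM in MB157R iEV and 11.1, 10.8 and 10.5 CPM with iN1-ICD. ZNF750 was called in all 3 comparisons, lower in MB157R (log2 fold change -7.23, SE 0.13, adjusted p = 1.8e-14), lower with iSOX2 (log2 fold change -1.48, SE 0.07, adjusted p = 7e-12) and higher with iN1-ICD (log2 fold change 6.07, SE 0.17, adjusted p = 4.2e-10). ZNF750 is in the study's NOTCH signature too, so this last rise is not independent evidence of its direction. TP63 fell slightly with iN1-ICD (-0.42), as did KLF4 (-0.23). With iSOX2 the filter left both out, and without it TP63 (log2 fold change 3.98, adjusted p = 2.2e-09) and KLF4 (log2 fold change 0.63, adjusted p = 0.0021) were called higher. PRDM1 rose with TP63 from MB157 to MB157R (6.39), and CEBPA fell with ZNF750 (-3.53). With iSOX2, KLF5 and EHF rose (2.05 and 1.96) and BARX2 showed the largest fall (-1.98). With iN1-ICD, MAF rose after ZNF750 in size (2.01) and OVOL1 fell (-0.57). GRHL2, the paralog of the member factors, fell in MB157R (-1.31) and with iN1-ICD (-0.31) and did not pass with iSOX2 (0.02).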

How the data were processed

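A stranded mRNA kit was used on 800 ng of RNA per library, and paired-end reads of 60 bases were sequenced. The authors aligned and quantified reads with STAR and Salmon on hg38 and deposited estimated counts per gene, not normalized, of which 88.0% were whole at a tolerance of 1e-06. The authors also deposited log2 CPM for the genes kept in each comparison, those with a mean TPM of at least 2 and a mean count of at least 5. Only the gene lists of these log2 tables were used, and the log2 values were recomputed to within 5e-14. The annotation that the authors used is not given in the sources used here.

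For each comparison, estimated counts of the kept genes (11435, 10904 and 11210) were rounded to whole numbers and tested with edgeR 4.0.16 in R 4.3.3 (glmQLFit, glmQLFTest, TMM factors, library sizes from all entries, no replicate block), with Benjamini-Hochberg adjustment over all genes tested. SE is the log2 fold change divided by the square root of F. CPM levels used TMM factors from 12091 genes, between 0.978 and 1.03. Folds are ratios of mean CPM. Where a group had 0 counts, the fold is against 3 counts over the group (0.0226 to 0.026 CPM), and floors and counting intervals cover counting error only. Between replicates the chi-square per gene was 3.73 to 18.3, above sampling noise, and the spread that p-values rest on is that of these libraries and may be technical. The fits were tested on simulated data.

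The 40 members, the other lists and the tests were chosen with earlier results of these data known. Every library is printed for members with a mean of at least 10 CPM in any group (24), and full statistics for the 4 largest rises and falls among called members with at least 1 CPM, for members singled out, for the largest rises and falls of the other lists, and for named factors. Promoter sequences are from RefSeq (GRCh38.p14), and positions and canonical transcripts from GENCODE v44 (GRCh38). The identity of near-identical members was planned on proteins and was computed on transcripts instead. Alternatives were RLE factors, library totals, other filters, limma-voom (limma 3.58.1), DESeq2 1.42.0, summed paralogs, a single fit of the 12 libraries, the replicate number as a block, a null of a log2 fold change of 1, and leaving out each library.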

Additional observations from a re-analysis of the deposited data

How the results depend on the processing

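The counts of members called kept within 1.5 times of the main counts under RLE factors, library totals, limma-voom, DESeq2, 1 fit over all 12 libraries and summed paralogs. Without a filter 22 members were called higher in MB157R iEV against MB157 iEV. With iSOX2, 5 members were called higher without a filter and 5 with a filter on a mean count of 5. All genes called without a filter were 15401, 9375 and 8670 in the 3 comparisons, where more genes were tested. Tested against a log2 fold change of 1, calls over all genes were 4008 in MB157R iEV against MB157 iEV, 473 with iSOX2 and 373 with iN1-ICD. In that test 0 members were higher and 2 lower with iSOX2, 0 were lower with iN1-ICD, and 2 were lower with iSOX2 and higher with iN1-ICD. Leaving out 1 library at a time gave 14 members higher, 9 lower and between 10115 and 10246 genes called in MB157R iEV against MB157 iEV. It gave 2 members higher, 9 to 10 lower and 6670 to 6920 genes with iSOX2, and 22 to 23 members higher, 4 lower and 5810 to 6327 genes with iN1-ICD. Same-numbered replicates did not deviate together (9 correlations between -0.145 and 0.0749). No pairing by number was visible, which does not show whether such replicates were grown or processed together. With a replicate block 10247, 7019 and 6422 genes were called, with 14 members higher and 9 lower, 2 higher and 10 lower, and 22 higher and 4 lower. A sign changed only for members that were not called. On library totals DMKN gave 0.052 and PPL 0.035 with iSOX2. Leaving out single libraries gave -0.0046 to 0.074 for EVPL in MB157R iEV against MB157 iEV. With iSOX2 it gave -0.040 to 0.20 for CNFN, -0.054 to 0.034 for DMKN and -0.072 to 0.013 for PPL, and with iN1-ICD -0.28 to 0.097 for CNFN, -0.056 to 0.029 for EVPL and -0.068 to 0.0066 for LYPD3. EVPL was called without the filter in MB157R iEV against MB157 iEV (0.12, adjusted p = 0.0345), and DMKN without MB157R iN1-ICD replicate 2 (0.13, adjusted p = 0.0429). The cause of these changes was not tested. Counting only the 250 bases before the start left 13 members with TGGGAA, 13 with TGANTCA, 6 with ACCNGTT and 8 with CTTTGT. Members under 1 CPM are limited by depth.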
